A study of Homo sapiens with 6 samples.

Results

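The mTORC1 nutrient sensors and brakes were 10 genes, taken by gene name from the deposited expression table: SESN1, SESN2, SESN3, DDIT4, RRAGC, RRAGD, TSC1, TSC2, RPTOR and DEPTOR. Each name matched 1 row, so 10 of the 58884 listed genes were described. HEK293FT is a human kidney-derived line made to express the SV40 large T antigen. These cells had received supernatant with secreted ISLR (3 libraries, titled ISLR) or, as the control, supernatant from empty vector (3 libraries, titled NC), in both cases for 72 h. Cells of both groups grew in DMEM with fetal bovine serum. ISLR carries leucine-rich repeats with an immunoglobulin-like domain and is secreted. The labels do not say which cells made the supernatant or whether the 3 libraries of a group were separate cultures, so p-values measure no more than the spread among these libraries, and that spread may be technical.

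mTORC1 is a kinase complex that promotes protein synthesis and growth when amino acids, growth factors and energy are sufficient. Amino acids act through the Rag GTPases, which work as pairs of RagA or RagB with RagC or RagD and bring mTORC1 to the lysosome, where the small GTPase RHEB switches it on. The sestrins restrain the Rag arm by binding the GATOR2 complex, and SESN2 is known as a leucine sensor. The TSC complex restrains RHEB, and DDIT4 (also called REDD1) acts through that complex under hypoxia and other stress. RPTOR is the scaffold that gives mTORC1 its substrates, so it and the Rag GTPases are working parts rather than brakes, whereas DEPTOR is an inhibitor bound to the kinase.

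Values were TPM, the length-corrected share that each gene takes of all transcripts in a library. In such bulk values fewer cells of a type and less RNA per cell cannot be told apart. TPM is scaled to a fixed total per library by construction, so the sequencing depth is unknown. The totals over listed genes, without the 1 row that had no gene name, lay between 984556.67 and 987783.8 in the 6 libraries. The ISLR transcript went against the labels. ISLR itself was listed at 0, 0.02 and 0 TPM in libraries labelled ISLR, against 510.32, 555.37 and 535.06 TPM in libraries labelled NC, so groups are called by their labels and every direction would turn if the labels were exchanged. Markers of HEK293 cells were present, with a summed level over 7 genes of 1538.02 to 1595.62 TPM in libraries labelled ISLR and 1392.61 to 1418.51 TPM in libraries labelled NC, mostly from VIM, while PAX2 did not exceed 1.5 TPM. Among 5 markers of other cell types, the blood marker PTPRC, the endothelial marker PECAM1, the liver marker ALB and the fibroblast marker DCN did not exceed 0.56 TPM in any library. The fibroblast collagen COL1A1 lay at 10.92 to 11.75 TPM in libraries labelled ISLR and 8.95 to 14.28 TPM in libraries labelled NC.

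Promoter sequences are shown for the members that differed between the groups and had a window, and for the members whose promoters held a match to a searched motif. RefSeq windows (GRCh38.p14) from 250 bases before to 50 bases after a gene start were at hand for 8 members in 11 windows. They were searched on both strands for 4 motifs. These were TGATGNAA (core of the C/EBP-ATF response element, bound by ATF4), CACGTG (the E-box of the CLEAR element, bound by TFEB and TFE3), GTAAACA (bound by FOXO factors) and ACGTG (core of the hypoxia response element, contained in CACGTG). Sequences run 5′ to 3′ on the strand of the gene, with matches in capitals, and the coordinates follow each name.
SESN2, plus strand, chr1:28259268-28259567: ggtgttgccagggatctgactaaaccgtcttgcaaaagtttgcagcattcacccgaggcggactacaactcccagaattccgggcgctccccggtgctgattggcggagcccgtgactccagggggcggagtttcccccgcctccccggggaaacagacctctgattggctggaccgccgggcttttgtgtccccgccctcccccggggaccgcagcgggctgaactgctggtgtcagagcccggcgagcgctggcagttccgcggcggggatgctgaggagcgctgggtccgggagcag
DDIT4, plus strand, chr10:72273674-72273973: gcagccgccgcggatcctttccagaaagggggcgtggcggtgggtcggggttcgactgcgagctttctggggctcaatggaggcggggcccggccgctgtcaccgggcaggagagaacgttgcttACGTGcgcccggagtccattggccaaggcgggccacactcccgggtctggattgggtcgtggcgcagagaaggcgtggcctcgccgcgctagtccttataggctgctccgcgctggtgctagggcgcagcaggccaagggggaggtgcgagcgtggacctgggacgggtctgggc
RPTOR, plus strand, chr17:80544588-80544887: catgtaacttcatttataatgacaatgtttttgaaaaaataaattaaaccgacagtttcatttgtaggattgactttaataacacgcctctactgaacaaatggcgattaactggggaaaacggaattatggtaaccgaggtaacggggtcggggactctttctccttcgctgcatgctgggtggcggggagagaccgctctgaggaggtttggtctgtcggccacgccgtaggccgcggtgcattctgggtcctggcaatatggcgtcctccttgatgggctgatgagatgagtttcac
RRAGC, minus strand, chr1:38859723-38860022: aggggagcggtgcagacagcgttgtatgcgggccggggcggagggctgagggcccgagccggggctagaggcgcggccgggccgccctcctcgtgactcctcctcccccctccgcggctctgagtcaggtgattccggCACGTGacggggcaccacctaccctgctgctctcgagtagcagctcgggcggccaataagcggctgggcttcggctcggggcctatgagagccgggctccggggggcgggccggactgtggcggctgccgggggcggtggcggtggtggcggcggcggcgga
TSC2, plus strand, chr16:2047735-2048034: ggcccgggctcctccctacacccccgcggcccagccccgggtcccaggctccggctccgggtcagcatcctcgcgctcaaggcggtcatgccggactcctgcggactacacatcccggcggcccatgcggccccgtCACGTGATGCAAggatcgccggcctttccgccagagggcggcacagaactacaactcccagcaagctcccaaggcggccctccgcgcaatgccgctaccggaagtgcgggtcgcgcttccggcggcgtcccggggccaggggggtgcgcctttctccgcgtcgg

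The windows of SESN2 and RPTOR held none of the 4 motifs. In the DDIT4 window, ACGTG began at position -125 relative to the RefSeq start. RRAGC held CACGTG from position -112. The first of the TSC2 windows held CACGTG from position -114 and TGATGCAA from position -110, and these matches overlap. TGATGNAA was found in 3.62% of all 35116 promoter windows, CACGTG in 7.26%, GTAAACA in 3.42% and ACGTG in 21.4%. Among the 11 windows of the members the numbers with a match were 1, 2, 0 and 3, and these matches are descriptions of the letters only.

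SESN2 was higher in libraries labelled ISLR, while DDIT4, RRAGD and RPTOR were lower. The other 6 members did not pass the test. Differences are log2 folds of TPM + 1, labelled ISLR minus labelled NC, from limma with Benjamini-Hochberg adjustment over 13869 tested genes and a threshold of 0.05. The 13869 tested genes had a median log2 fold of 0.22, so the test was also run after median-of-ratios scaling between libraries, where that median was 0.0014. All 10 members passed the filter of 1 TPM in at least 3 libraries. As deposited, 1 member was called higher and 3 lower, where 38.5% of all tested genes were called higher and 7.38% lower. After scaling the same 4 members were called in the same directions, where 18.2% of tested genes were higher and 20.4% lower. Without labelled NC replicate 2, 4 members (SESN2, RRAGC, TSC1 and TSC2) were called higher and 0 lower as deposited. In that fit 4603 of the 13869 tested genes were higher and 888 lower. Leaving out any other single library gave 1 or 2 members higher and 1 to 3 lower as deposited. In those fits 4233 to 4665 tested genes were higher and 786 to 930 lower. DDIT4, RRAGD and RPTOR remained lower after scaling in all 6 fits that left out a library. The median log2 fold of the 10 members was 0.17 as deposited and -0.05 after scaling. The levels of the 2 groups did not overlap for 5 members that were higher and 3 that were lower, where 46.3% and 10.5% of tested genes showed such separation. By the adjusted p of the authors' deposited table, under 0.05, SESN2 and TSC2 (2 members) were called with the higher mean in libraries labelled ISLR and 3 (DDIT4, RRAGD and RPTOR) with the lower, where 32.9% and 18.3% of the genes tested here did. The significance column of the authors' deposited table, whose rule was not given in the sources used here, marked none of the 10 members.

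**Figure D1:**
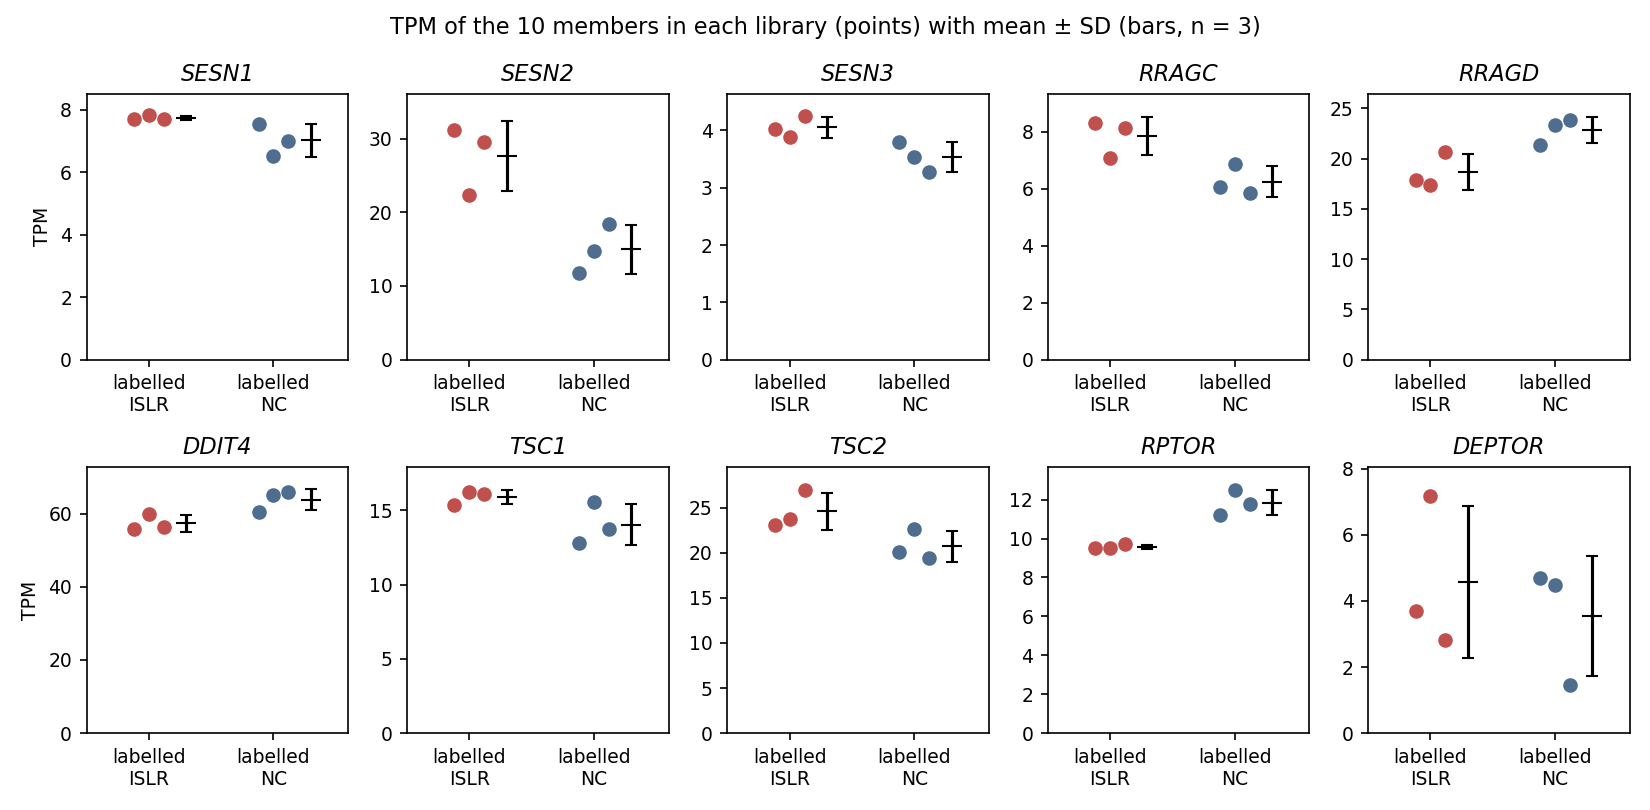
TPM of the 10 members (vertical axes from 0, different scale per gene) in the 3 libraries labelled ISLR and the 3 labelled NC, as points, with mean ± SD as bars. SESN2 stands apart upward (22.29 to 31.19 TPM in libraries labelled ISLR, 11.73 to 18.41 TPM in those labelled NC). RPTOR, RRAGD and DDIT4 lie lower without overlap, with a narrow gap for RRAGD (20.71 to 21.40 TPM) and DDIT4 (59.87 to 60.46 TPM). SESN1, SESN3, RRAGC and TSC2 lie higher by narrow gaps, and DEPTOR is scattered in both groups.

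The 3 sestrins were unequal in level and in difference. SESN2 had 31.19, 22.29 and 29.51 TPM in libraries labelled ISLR, against 11.73, 14.70 and 18.41 TPM in libraries labelled NC. Every library labelled ISLR was above every library labelled NC, with replicate 2 the lowest of those labelled ISLR. Means were 27.7 ± 4.73 TPM under the ISLR label against 14.9 ± 3.35 TPM under the NC label (SD, n = 3 each), a ratio of 1.85. The log2 fold was 0.85 (SE 0.18, 95% interval 0.42 to 1.29, limma adjusted p = 0.00902) as deposited and 0.62 (interval 0.18 to 1.05, adjusted p = 0.0363) after scaling. The scaled call was lost without labelled ISLR replicate 1 or 3 (limma adjusted p = 0.105 and 0.101) and without labelled NC replicate 1 or 2 (0.0812 and 0.0847), with the fold still above 0. In the authors' deposited table SESN2 had an adjusted p of 0.0417. SESN2 (ENSG00000130766.4) lies on the plus strand of chromosome 1 at 28259527 to 28282491 (GRCh38, GENCODE 29).

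SESN1, a stress-responsive sestrin, had 7.71, 7.83 and 7.72 TPM in libraries labelled ISLR, against 7.55, 6.52 and 7.0 TPM in libraries labelled NC. SESN3, known as a FOXO target, had 4.03, 3.88 and 4.25 TPM in libraries labelled ISLR, against 3.79, 3.53 and 3.28 TPM in libraries labelled NC. For both genes the groups did not overlap but lay close together. Their log2 folds were 0.13 (95% interval -0.07 to 0.33) and 0.16 (-0.08 to 0.40), with limma adjusted p of 0.257 and 0.241. After scaling both signs turned, to -0.09 (-0.29 to 0.10) and -0.04 (-0.27 to 0.20).

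A share within a family does not depend on the scaling between libraries. SESN2 made up 72.7%, 65.6% and 71.1% of the summed sestrin TPM in libraries labelled ISLR, against 50.8%, 59.4% and 64.2% in libraries labelled NC. The mean share was 69.8 ± 3.74% under the ISLR label against 58.1 ± 6.75% under the NC label (SD, n = 3 each), a difference of 11.6 percentage points. The groups did not overlap, but the highest library labelled NC lay close to the lowest labelled ISLR, and the exact two-sided permutation test gave p = 0.1, the smallest that 3 against 3 libraries allow. The summed sestrin TPM was 42.93, 34.00 and 41.48 in libraries labelled ISLR, against 23.07, 24.75 and 28.69 in libraries labelled NC.

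Of the Rag GTPases of the C and D type, RRAGD was lower and RRAGC did not pass the test. RRAGD had 17.86, 17.40 and 20.71 TPM in libraries labelled ISLR, against 21.40, 23.32 and 23.87 TPM in libraries labelled NC, so the groups came near each other without overlap. The means were 18.7 ± 1.79 TPM under the ISLR label against 22.9 ± 1.30 TPM under the NC label (SD, n = 3 each). Its log2 fold was -0.28 (SE 0.08, 95% interval -0.48 to -0.08, limma adjusted p = 0.0295) as deposited and -0.52 (-0.71 to -0.33, adjusted p = 0.00248) after scaling. Tested genes of similar length had a median log2 fold of 0.29 as deposited. The call as deposited was lost without labelled ISLR replicate 1 or 2 (limma adjusted p = 0.0848 and 0.0875) or labelled NC replicate 2 or 3 (0.0786 and 0.0877), while the scaled call held in all 6 such fits. RRAGD (ENSG00000025039.14) lies on the minus strand of chromosome 6 at 89364636 to 89412270 (GRCh38, GENCODE 29).

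RRAGC had 8.32, 7.08 and 8.13 TPM in libraries labelled ISLR, against 6.05, 6.87 and 5.84 TPM in libraries labelled NC. All libraries labelled ISLR were higher, but by a small step. The log2 fold of 0.29 (95% interval 0.05 to 0.52) narrowly missed the threshold as deposited (limma adjusted p = 0.0532), and after scaling it was 0.07 (-0.18 to 0.31, adjusted p = 0.638). Without labelled ISLR replicate 2 or labelled NC replicate 2 RRAGC was called as deposited (limma adjusted p = 0.0453 and 0.0471). The authors' deposited table gave RRAGC an adjusted p of 0.919. RRAGC shares 1183 exonic bases with AL139260.2 on the same strand, which was listed at 0 in all 6 libraries. RRAGD made up 68.2%, 71.1% and 71.8% of the summed RRAGC and RRAGD TPM in libraries labelled ISLR, against 78.0%, 77.2% and 80.3% in libraries labelled NC. The difference of the mean shares was -8.15 percentage points, with no overlap between the groups (exact two-sided permutation p = 0.1, the smallest possible).

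**Figure D2:**
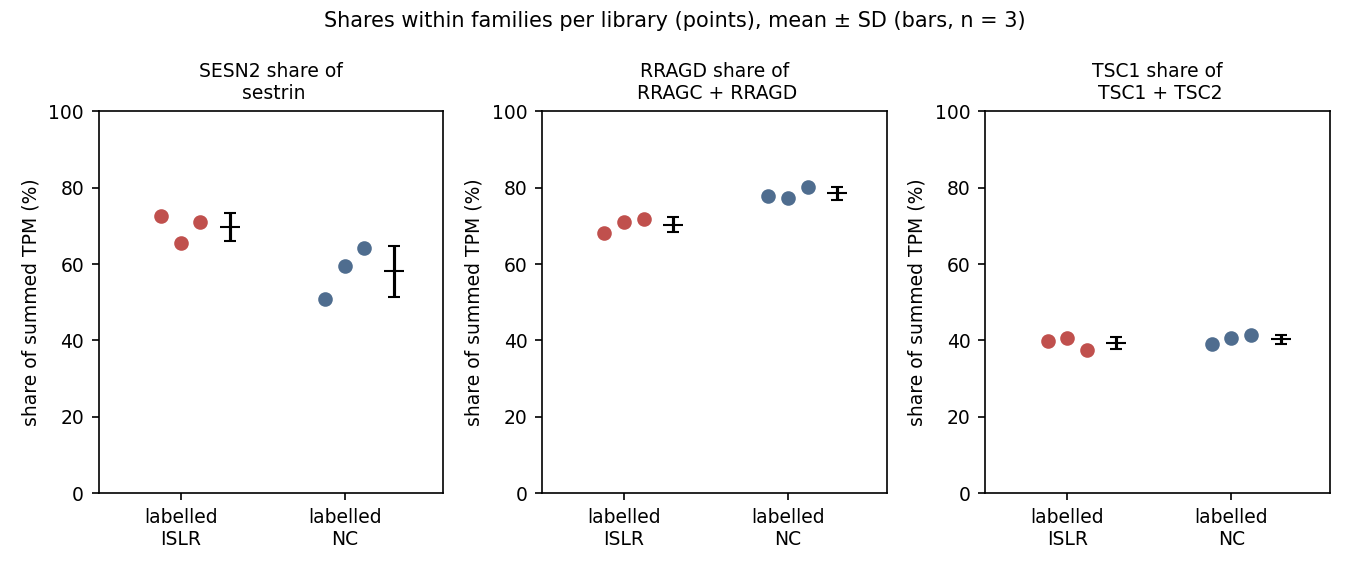
Share of the summed TPM (vertical axes, in percent) taken by SESN2 among the sestrins, by RRAGD in the RRAGC and RRAGD pair and by TSC1 in the TSC1 and TSC2 pair, for each library (points) with mean ± SD (bars). The SESN2 share is higher and the RRAGD share lower in the 3 libraries labelled ISLR without overlap, while the TSC1 shares overlap.

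Of the regulators of RHEB, DDIT4 had the highest level of the 10 members in every library and a small difference. DDIT4 had 55.79, 59.87 and 56.26 TPM in libraries labelled ISLR, against 60.46, 64.99 and 65.98 TPM in libraries labelled NC. The groups did not overlap, but the nearest libraries were under 1 TPM apart. Its means were 57.3 ± 2.23 TPM under the ISLR label against 63.8 ± 2.94 TPM under the NC label (SD, n = 3 each), and the log2 fold was -0.15 (SE 0.05, 95% interval -0.27 to -0.03, limma adjusted p = 0.0478). After scaling the fold was -0.40 (-0.52 to -0.28, adjusted p = 0.00128). Tested genes of similar length had a median log2 fold of 0.06 as deposited, and those of similar expression 0.13. The DDIT4 fold was -0.30 with the length trend removed after scaling and -0.28 with the expression trend removed (limma adjusted p = 0.00368 and 0.00554). The call as deposited lay at the edge of the threshold. It was lost with no filter on low values (limma adjusted p = 0.1), without labelled ISLR replicate 1 or 3 (0.124 and 0.126) and without labelled NC replicate 2 or 3 (0.122 and 0.139). The scaled call held in all 6 fits that left out a library. In the authors' deposited table DDIT4 had an adjusted p of 5.82e-14. DDIT4 (ENSG00000168209.4) lies on the plus strand of chromosome 10 at 72273920 to 72276036 (GRCh38, GENCODE 29), and its antisense gene DDIT4-AS1, with which it shares 847 exonic bases, was listed at 0 in all 6 libraries.

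TSC2, the subunit with GTPase-activating function toward RHEB, had 23.10, 23.72 and 26.92 TPM in libraries labelled ISLR, against 20.07, 22.67 and 19.44 TPM in libraries labelled NC. TSC1, its stabilizing partner, had 15.32, 16.24 and 16.12 TPM in libraries labelled ISLR, against 12.81, 15.53 and 13.72 TPM in libraries labelled NC. The TSC2 groups were separated by a narrow gap, and the TSC1 groups overlapped. Neither passed as deposited, with log2 folds of 0.24 (95% interval 0.03 to 0.44, limma adjusted p = 0.0586) for TSC2 and 0.17 (-0.02 to 0.37, adjusted p = 0.132) for TSC1. After scaling the folds were -0.0034 (-0.20 to 0.19) and -0.06 (-0.26 to 0.14). Without labelled NC replicate 2, both were called higher as deposited (limma adjusted p = 0.0361 and 0.0492). TSC2 had an adjusted p of 1.04e-05 in the authors' deposited table, with the higher mean TPM in libraries labelled ISLR. TSC2 shares 778 exonic bases with PKD1 on the opposite strand, and PKD1 lay at 19.57 to 26.69 TPM in libraries labelled ISLR and 14.17 to 18.62 TPM in libraries labelled NC. TSC2 also shares 402 exonic bases with NTHL1 on the opposite strand, which lay at 48.94 to 53.12 TPM in libraries labelled ISLR and 46.59 to 53.45 TPM in libraries labelled NC. TSC1 shares 349 with GFI1B on the opposite strand, which lay at 11.37 to 14.64 TPM in libraries labelled ISLR and 7.37 to 16.73 TPM in libraries labelled NC. Use of strand in counting was not given in the sources used here, and the part of these genes in the TSC1 and TSC2 values was not tested. TSC1 made up 39.3 ± 1.66% of the summed TSC1 and TSC2 TPM in libraries labelled ISLR and 40.3 ± 1.24% in libraries labelled NC (SD, n = 3 each, exact two-sided permutation p = 0.5).

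RPTOR was lower with little scatter. It had 9.50, 9.50 and 9.70 TPM in libraries labelled ISLR, against 11.22, 12.51 and 11.79 TPM in libraries labelled NC, with a clear gap between the groups. The means were 9.57 ± 0.115 TPM under the ISLR label against 11.8 ± 0.647 TPM under the NC label (SD, n = 3 each), a ratio of 0.808. The log2 fold was -0.28 (SE 0.07, 95% interval -0.45 to -0.11, limma adjusted p = 0.0185) as deposited and -0.51 (-0.68 to -0.33, adjusted p = 0.00205) after scaling. Tested genes of similar length had a median log2 fold of 0.32 as deposited. The call as deposited was lost without labelled ISLR replicate 2 (limma adjusted p = 0.0517) or labelled NC replicate 2 (0.0592). RPTOR (ENSG00000141564.14) lies on the plus strand of chromosome 17 at 80544819 to 80966371 (GRCh38, GENCODE 29).

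On the log2 scale, DEPTOR varied more within groups than any other member. It had 3.69, 7.17 and 2.83 TPM in libraries labelled ISLR, against 4.70, 4.47 and 1.45 TPM in libraries labelled NC. The groups overlapped, and the log2 fold of 0.31 had a 95% interval of -0.70 to 1.32 (limma adjusted p = 0.572), so a change of 2-fold in the higher direction lay within it. Its SD within groups, 0.63 on the log2 scale, was larger than that of 96.7% of tested genes, and that of SESN2 (0.28) larger than that of 85.5%. For the other 8 members the share of tested genes with a smaller SD lay between 13.1% and 46.3%.

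**Figure D3:**
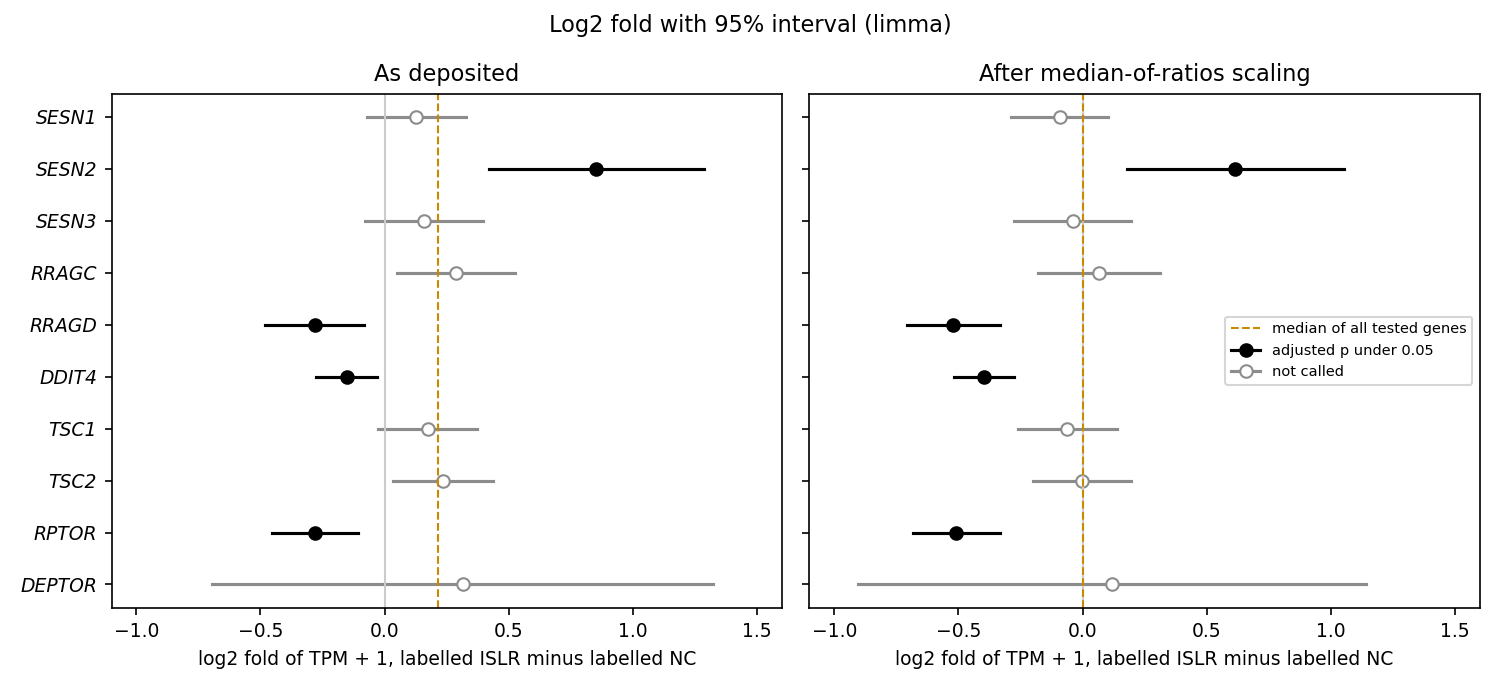
Log2 fold of TPM + 1 (horizontal axes) with 95% intervals for the 10 members, as deposited and after median-of-ratios scaling. Black points passed an adjusted p of 0.05 and the dashed line is the median of all tested genes (0.22 as deposited, 0.0014 after scaling). The same 4 members are black in both panels.

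The order of the levels differed between the groups in the places of SESN2, RRAGD, RRAGC and SESN1. TPM is corrected for length, so levels can be set side by side. By mean TPM the order in libraries labelled ISLR was DDIT4 (57.3), SESN2 (27.7), TSC2 (24.6), RRAGD (18.7), TSC1 (15.9), RPTOR (9.57), RRAGC (7.84), SESN1 (7.75), DEPTOR (4.56) and SESN3 (4.05). In the libraries labelled NC it was DDIT4 (63.8), RRAGD (22.9), TSC2 (20.7), SESN2 (14.9), TSC1 (14.0), RPTOR (11.8), SESN1 (7.02), RRAGC (6.25), DEPTOR (3.54) and SESN3 (3.53). Ranges of neighbours overlapped for SESN2 and TSC2, RRAGC and SESN1, and DEPTOR and SESN3 in libraries labelled ISLR. In those labelled NC they overlapped for RRAGD and TSC2, SESN2 and TSC1, SESN1 and RRAGC, and DEPTOR and SESN3. The ranges of the other neighbouring pairs did not overlap.

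The rest of the pathway was read from 8 lists with 68 genes, of which 67 were tested. MITF, at 0.85 to 1.16 TPM in libraries labelled ISLR and 0.53 to 0.73 TPM in libraries labelled NC, did not pass the filter. As deposited 31 genes were higher and 6 lower, where 38.5% of all tested genes were higher and 7.38% lower. After scaling 17 were higher and 14 lower, where 18.2% and 20.4% of all tested genes were. The median log2 fold over the 67 genes was 0.30 as deposited and 0.07 after scaling, against 0.22 and 0.0014 over all tested genes.

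Of 8 genes of mTORC1 and mTORC2, 5 were higher and none lower as deposited, and 4 higher and 1 lower after scaling (MAPKAP1 of mTORC2, named after its values were seen, 16.2 ± 0.751 TPM under the ISLR label against 18.0 ± 0.722 TPM under the NC label), with a median log2 fold of 0.50 and 0.27. MTOR, the kinase, had 15.40, 16.00 and 17.26 TPM in libraries labelled ISLR, against 10.83, 10.94 and 11.61 TPM in libraries labelled NC (limma adjusted p = 0.00168, and 0.0167 after scaling). MTOR was higher in all 3 libraries labelled ISLR, whereas RPTOR was lower. Tested genes of similar length to MTOR had a median log2 fold of 0.28 as deposited. With the length trend removed after scaling MTOR was not called (log2 fold 0.18, limma adjusted p = 0.0665). With the expression trend removed after scaling it was called (0.22, adjusted p = 0.0377). TELO2 and TTI1, which help assemble the complexes, stood at 38.8 ± 2.05 TPM under the ISLR label against 21.2 ± 0.0557 TPM under the NC label and at 18.1 ± 0.883 TPM under the ISLR label against 9.07 ± 0.186 TPM under the NC label (SD, n = 3 each), and both were called on both scales.

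GATOR1, which switches off RagA and RagB, and KICSTOR, which anchors it at the lysosome, had 4 of 7 genes higher and none lower as deposited, and 2 and 0 after scaling. Their median log2 fold was 0.53 and 0.30. NPRL2 of GATOR1 stood at 40.3 ± 4.25 TPM under the ISLR label against 27.0 ± 0.784 TPM under the NC label (SD, n = 3 each) and was called on both scales. NPRL3 of GATOR1, at 15.9 ± 0.0569 TPM under the ISLR label against 12.4 ± 0.183 TPM under the NC label, was called as deposited only (limma adjusted p = 0.00408, and 0.2 after scaling). GATOR2, the complex that sestrins bind, had 3 of 5 genes higher and none lower as deposited, and 2 and 0 after scaling, with a median log2 fold of 0.47 and 0.26. WDR24 stood at 8.68 ± 1.10 TPM under the ISLR label against 4.53 ± 0.155 TPM under the NC label and SEH1L at 13.0 ± 0.883 TPM under the ISLR label against 6.98 ± 0.816 TPM under the NC label, called on both scales. SEC13, which also serves in the coat of secretory vesicles, was called as deposited and not after scaling (209.9 ± 5.41 TPM under the ISLR label against 169.2 ± 5.03 TPM under the NC label). With the expression trend removed after scaling SEC13 was called (log2 fold 0.29, limma adjusted p = 0.00136), and with the length trend removed it was not (0.094).

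Among 5 other amino acid sensors, 1 was higher and none lower on both scales, with a median log2 fold of 0.31 as deposited and 0.10 after scaling. It was LARS, the leucyl-tRNA synthetase, at 69.3 ± 3.89 TPM under the ISLR label against 42.6 ± 2.75 TPM under the NC label (SD, n = 3 each, limma adjusted p = 0.000363).

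The Rag partners, Ragulator and the folliculin complex went both ways. Of 10 genes, 4 were higher and 3 lower as deposited, and 2 higher and 6 lower after scaling, with a median log2 fold of -0.09 and -0.33. RRAGA had 30.56, 32.82 and 31.88 TPM in libraries labelled ISLR, against 17.16, 18.42 and 18.29 TPM in libraries labelled NC (log2 fold 0.79, 95% interval 0.65 to 0.93, limma adjusted p = 0.000172). FNIP1, a partner of folliculin, had 8.20, 7.96 and 9.41 TPM in libraries labelled ISLR, against 17.71, 18.70 and 19.66 TPM in libraries labelled NC (log2 fold -1.05, -1.25 to -0.85, adjusted p = 0.000233). Folliculin with FNIP1 or FNIP2 acts on RagC and RagD as a GTPase-activating complex. FLCN itself, named after its values were seen, stood at 38.0 ± 1.91 TPM under the ISLR label against 45.9 ± 1.47 TPM under the NC label and was lower on both scales (limma adjusted p = 0.00699, and 0.000456 after scaling). FNIP2, also named after its values were seen, was higher as deposited (2.04 ± 0.146 TPM under the ISLR label against 1.14 ± 0.0964 TPM under the NC label, adjusted p = 0.0128) and not called after scaling (0.0541). LAMTOR4 of Ragulator was lower, at 202.4 ± 4.57 TPM under the ISLR label against 238.1 ± 7.0 TPM under the NC label (adjusted p = 0.00175).

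The list of the TSC partner, RHEB and upstream kinases had 5 of 14 genes higher and 1 lower as deposited, and 2 and 2 after scaling, with a median log2 fold of 0.17 and -0.07. PRKAB1, a subunit of the energy sensor AMPK, stood at 23.7 ± 0.816 TPM under the ISLR label against 14.8 ± 0.753 TPM under the NC label, and STK11, the kinase LKB1 that activates AMPK, at 62.2 ± 4.16 TPM under the ISLR label against 45.0 ± 1.12 TPM under the NC label (SD, n = 3 each), both called on both scales. PRKAG1 of AMPK was called as deposited only (51.8 ± 0.437 TPM under the ISLR label against 44.9 ± 1.98 TPM under the NC label). The lower gene was TBC1D7, the other subunit of the TSC complex, named after its values were seen, at 40.6 ± 2.01 TPM under the ISLR label against 45.7 ± 1.28 TPM under the NC label (limma adjusted p = 0.0373).

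mTORC1 substrates had 5 of 10 tested genes higher and none lower as deposited, and 4 and 2 after scaling, with a median log2 fold of 0.40 and 0.22. EIF4EBP1, a repressor of cap-dependent translation, stood at 523.0 ± 13.0 TPM under the ISLR label against 375.7 ± 2.18 TPM under the NC label, GRB10, an adaptor that dampens insulin signalling, at 14.1 ± 0.293 TPM under the ISLR label against 8.08 ± 0.791 TPM under the NC label, and ULK1, the kinase that starts autophagy, at 12.8 ± 0.344 TPM under the ISLR label against 7.63 ± 0.796 TPM under the NC label (SD, n = 3 each). These 3 were called higher on both scales. The transcription factors TFEB and TFE3, which drive lysosomal genes and were named after their values were seen, stood at 4.47 ± 0.789 TPM under the ISLR label against 3.99 ± 0.444 TPM under the NC label and at 35.9 ± 1.10 TPM under the ISLR label against 35.2 ± 1.99 TPM under the NC label, with limma adjusted p of 0.477 and 0.744 as deposited. TFE3 was called lower after scaling (adjusted p = 0.025). That call held with the length trend also removed (0.0157) but not with the expression trend also removed (0.0751).

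**Figure D4:**
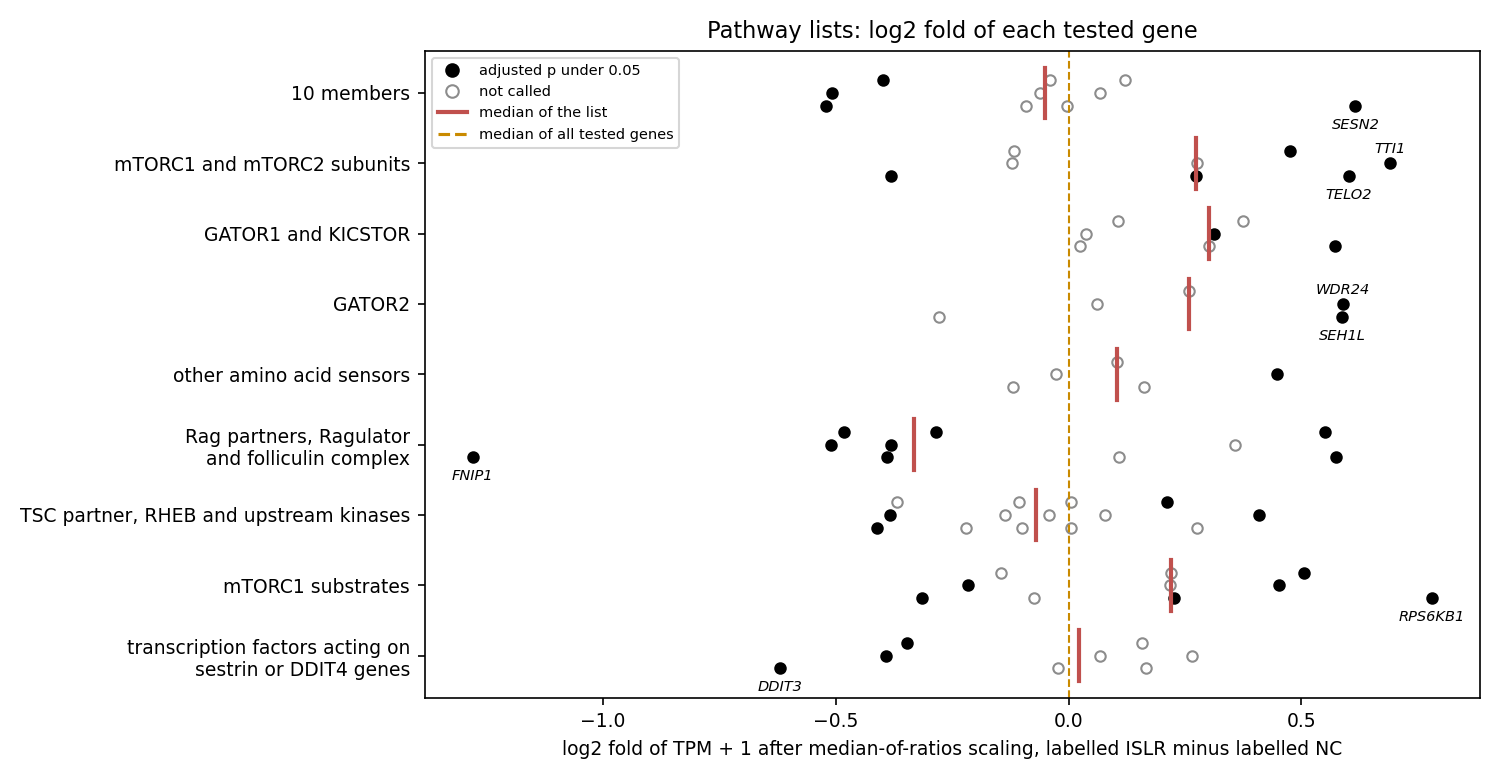
Log2 fold after median-of-ratios scaling (horizontal axis) of each tested gene in the 10 members and the 8 pathway lists (rows). Black points passed an adjusted p of 0.05, red bars are list medians and the dashed line is the median of all tested genes. Names mark the genes farthest from 0, with FNIP1 at -1.28 as the lowest and RPS6KB1 at 0.78 as the highest.

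Transcription factors known to act on sestrin or DDIT4 genes were measured beside the members. ATF4, which is known to induce SESN2 and DDIT4 under amino acid shortage and endoplasmic reticulum stress, stood at 1143 ± 5.41 TPM under the ISLR label against 1263 ± 27.4 TPM under the NC label, and DDIT3, the stress factor CHOP, at 45.8 ± 0.931 TPM under the ISLR label against 59.8 ± 3.91 TPM under the NC label (SD, n = 3 each), both lower on both scales. With the expression trend removed after scaling, ATF4 was not called (log2 fold -0.06, limma adjusted p = 0.0788), and DDIT3 was (-0.52, adjusted p = 0.00114). NFE2L2 (14.3 TPM under the ISLR label against 10.6 TPM under the NC label), FOXO3 (15.5 TPM under the ISLR label against 13.2 TPM under the NC label) and HIF1A (15.4 TPM under the ISLR label against 10.7 TPM under the NC label) were higher as deposited and not called after scaling, with limma adjusted p of 0.139, 0.792 and 0.0551 there. FOXO1 (4.26 TPM under the ISLR label against 4.81 TPM under the NC label) was called lower after scaling only (adjusted p = 0.0175), and CEBPB (6.06 TPM under the ISLR label against 4.68 TPM under the NC label) on neither scale. Of the 8 genes, 4 were higher and 2 lower as deposited, and none and 3 after scaling, with a median log2 fold of 0.24 and 0.02.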

How the data were processed

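RNA of HEK293FT cells was sequenced in 3 libraries labelled ISLR and 3 labelled NC, grouped by sample title. The authors deposited TPM per gene and library, mean TPM per group, a length per gene, and p-values and adjusted p-values of their own comparison, for which DESeq2 is named in the name of the table. HISAT2, Cufflinks, RSEM and GRCh38.p10 are named without role, per the submitters' processing notes. Their settings and any use of strand were not given in the sources used here. TPM keeps no depth, so no counting interval is given.

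Of 58885 rows, 1 without a gene name was left out. A gene was tested if 3 or more libraries had 1 TPM or more, on log2(TPM + 1) with limma 3.58.1 (R 4.3.3, trend and robust options), two-sided, with group as the only term, and again after median-of-ratios scaling. The pseudocount of 1 understates the change of low genes. Shares were compared by exact permutation tests. Named genes were the members, ISLR, up to 3 called genes with the smallest p per list, and the transcription factors of the last list. Some genes under this rule are not reported here. The members, lists and tests were chosen with earlier results of these data known. Alternatives were other pseudocounts (0.1 and 5), filters (none and 5 TPM), normalizations, limma options, a replicate block, leaving out each library, and the authors' adjusted p-values. For the authors' adjusted p-values, direction was taken from mean TPM. Removing the dependence of folds on gene length or on expression (lowess span 0.3) was chosen after seeing the data. Gene positions are from GENCODE 29, promoters from RefSeq (GRCh38.p14). Figures were drawn with matplotlib 3.10.9.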

Additional observations from a re-analysis of the deposited data

How the results depend on the processing

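The direction of SESN2, DDIT4, RRAGD and RPTOR was kept in every setting tried. SESN2 lost its call with a replicate block together with scaling (adjusted p = 0.0602), and DDIT4 and RRAGD with no filter (0.1 and 0.0679). DDIT4 also lost it without the trend and robust options (0.0976). The replicate numbers did not pair the libraries (correlations of same-numbered deviations 0.0201, 0.0468 and -0.0556). With a replicate block 5778 genes were called, 4841 higher and 937 lower, and DDIT4 had an adjusted p of 0.0527.

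Of all tested genes, 5346 were higher as deposited, 2521 with scaling, 2454 with quantile normalization, 2081 with a replicate block and scaling, 2277 with the length trend removed and 2338 with the expression trend removed. In the same order 1024, 2827, 2111, 2517, 2833 and 2282 were lower. The adjusted p of the authors' deposited table gave 2655 lower genes when genes not tested here were also counted. Among the 13869 genes tested here that adjusted p gave 2540 lower. Pathway genes were 31, 17, 19, 14, 16 and 18 higher. They were 6 lower as deposited, 14 with scaling, 11 with quantile normalization and 13 with block and scaling. They were 17 lower with the length trend removed, 9 with the expression trend removed and 14 by the adjusted p of the authors' deposited table. Members called higher numbered 1, but 3 with a filter of 5 TPM, 2 without the trend and robust options and 0 with block and scaling. SESN3 and DEPTOR did not pass the filter of 5 TPM and were not tested there. Of all genes tested in these settings, 4270, 5199 and 2081 were higher. By the adjusted p of the authors' deposited table, 2 members with the higher mean TPM passed. For all counts by that adjusted p, direction was taken from mean TPM, because the direction of the authors' own test was not given. Members called lower numbered 3, but 1 with no filter, 2 without the trend and robust options and 2 with a replicate block. All genes tested in these settings gave 784, 833 and 937 lower. Leaving out 1 library, with or without scaling, gave 4111 to 5505 calls, 1808 to 4665 higher and 786 to 2485 lower, 0 to 4 members higher and 0 to 3 lower, and 13 to 32 pathway genes higher and 5 to 15 lower. Without labelled NC replicate 2 and without scaling, 4 members were higher and 0 lower, where 4603 of all tested genes were higher and 888 lower.

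Signs turned only for members that were not called in the main test, as deposited or after scaling. Of these, RRAGC, TSC1 and TSC2 were called higher in at least 1 other setting. With scaling, quantile normalization, block and scaling, length trend removed and expression trend removed, in that order, the log2 fold of SESN1 was -0.092, -0.16, -0.092, -0.14 and -0.19, that of SESN3 -0.040, -0.12, -0.040, -0.13 and -0.15, that of TSC1 -0.061, -0.080, -0.061, -0.15 and -0.10, and that of TSC2 -0.0034, -0.0046, -0.0034, -0.10 and -0.0027. RRAGC turned to -0.0064 with quantile normalization and -0.030 with the expression trend removed. With 1 library left out, with or without scaling, the range was -0.13 to 0.17 for SESN1, -0.086 to 0.20 for SESN3, -0.12 to 0.24 for TSC1, -0.057 to 0.30 for TSC2 and -0.29 to 0.54 for DEPTOR. The cause of these changes was not tested.

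The shares kept their direction in all settings: 8.0 to 14.7 percentage points for SESN2, -8.87 to -5.71 for RRAGD and -1.69 to -0.072 for TSC1. Unknown depth limits what can be said of members near 4 TPM.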

Other observations

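The Rag GTPases of the A and B type are set beside those of the C and D type here, a comparison chosen after the values were seen and given without a test. The summed TPM of RRAGA and RRAGB was 40.88, 41.94 and 45.81 in libraries labelled ISLR, against 22.85, 25.04 and 23.71 in libraries labelled NC. The summed TPM of RRAGC and RRAGD was 26.18, 24.48 and 28.84 in libraries labelled ISLR, against 27.45, 30.19 and 29.71 in libraries labelled NC. The ratio of the second sum to the first, which does not depend on scaling, was 0.640, 0.584 and 0.630 in libraries labelled ISLR, against 1.20, 1.21 and 1.25 in libraries labelled NC. RRAGB, named after its values were seen, rose with RRAGA (11.1 ± 2.50 TPM under the ISLR label against 5.91 ± 0.630 TPM under the NC label, SD, n = 3 each, limma adjusted p = 0.00552), but had an adjusted p of 0.779 in the authors' deposited table. RRAGA and RRAGB are closely related in sequence, and the handling of shared reads was not given in the sources used here.

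RPS6KB1, which encodes an S6 kinase that mTORC1 activates, was also named after its values were seen. It had 19.97, 18.34 and 26.87 TPM in libraries labelled ISLR, against 14.00, 9.27 and 7.93 TPM in libraries labelled NC, so the groups did not overlap (limma adjusted p = 0.0101, and 0.0296 after scaling). RPS6KB2, the other S6 kinase gene of the substrate list, lay at a higher level and did not rise. Its means were 56.3 TPM under the ISLR label and 59.1 TPM under the NC label, with overlapping groups. The deposited values gave it a log2 fold of -0.07 that missed the threshold (limma adjusted p = 0.324). Scaling made the RPS6KB2 fold -0.31, a call in the lower direction (limma adjusted p = 0.00648).

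Within each group, the libraries that were far from the others in DEPTOR were also at an end of the SESN2 values. Labelled ISLR replicate 2 had the highest DEPTOR (7.17 TPM) and the lowest SESN2 (22.29 TPM) of its group, and labelled NC replicate 3 the lowest DEPTOR (1.45 TPM) and the highest SESN2 (18.41 TPM). With 3 libraries per group, all but the middle library lie at an end for any gene, so such matches are frequent. This match was noticed in 6 libraries and was not tested.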
